A study of Homo sapiens with 6 samples.

Results

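Cholesterol synthesis, cholesterol transport and fatty acid synthesis were followed through 35 genes in human KMS-27 cells, an established line of multiple myeloma, after silencing of Che-1. The genes were chosen by symbol, in the old or the new spelling, and all 35 were among the 16444 genes of the authors' spike-in table. They fall into 7 genes of synthesis up to farnesyl pyrophosphate, 11 genes from squalene to cholesterol, 5 genes of the control by SREBP, 5 genes of uptake and transport, 4 genes of efflux and its LXR receptors, and 3 genes of fatty acid synthesis. The siChe-1 group had 3 libraries of cells given siRNA against Che-1, also named AATF after its gene, and the siControl group had 3 libraries of cells with control siRNA. The labels give no time after transfection and no siRNA sequence, and nothing in them says whether replicate libraries stem from separate cultures; the p-values thus cover the spread among these 6 libraries, possibly a technical one.

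Cholesterol is made from acetyl-CoA through mevalonate, the isoprenoid farnesyl pyrophosphate and squalene. When sterols in the endoplasmic reticulum are low, SCAP carries the SREBP transcription factors to the Golgi apparatus, where they are cleaved and set free to enter the nucleus; INSIG proteins hold SCAP back when sterols are high. SREBF2 encodes the factor known mainly for cholesterol synthesis and SREBF1 those known mainly for fatty acid synthesis, while LXR receptors respond to oxysterols and are known for raising cholesterol efflux and SREBF1. Plasma cells and myeloma cells carry a large endoplasmic reticulum for antibody secretion, and its membranes need both lipids.

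AATF, the silenced gene, was low in each siChe-1 library, and plasma cell markers were present in both groups. AATF had 14.9, 14.8 and 17.2 FPKM in siChe-1 libraries, against 93.9, 88.8 and 112 FPKM in siControl libraries (log2 change -2.57, SE 0.11, limma adjusted p = 0.00027). FPKM gives fragments per length of transcript within a library's total, and levels can be set side by side between genes; the values here were rescaled to a common level between libraries, and a change in them is relative to other genes. A log2 change by limma is a difference in log2(FPKM + 1). The FPKM columns carry no replicate number and are called the first, second or last listed library of a group. Of 10 plasma cell and B lineage markers, 8 were measured, with summed FPKM of 9071 to 12743 in siChe-1 and 7325 to 10391 in siControl libraries. Nearly all of that sum is IGJ, the antibody J chain, and of the 8 markers limma called XBP1 (log2 change -0.47) and MZB1 (-0.46) lower and CD38 (0.74) and TNFRSF17 (0.25) higher in siChe-1 libraries; the part of these changes in the results was not tested. Markers of T and NK cells, erythroid, epithelial and stromal or endothelial cells were 0 of 5, 0 of 3, 0 of 3 and 0 of 5 measured, and of 5 monocyte markers only CD68 was, at 1.21 ± 0.117 FPKM in siChe-1 and 0.666 ± 0.133 in siControl (SD, n = 3 each). One library stood apart: siChe-1 replicate 3 had 379232 spike-in reads, against 835414 and 1041244 in siChe-1 replicates 1 and 2 and 351573 to 519573 in siControl libraries, and it is not in the authors' spike-in table. Results are therefore given for 6 libraries in FPKM and, without siChe-1 replicate 3, for whole reads of 5 libraries (19697651 to 22383514 gene reads each) that were recovered from that table. In a bulk sample, fewer cells of a type and less RNA per cell cannot be told apart.

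Promoter sequences of the pairs SREBF1 and SREBF2 and INSIG1 and INSIG2 are shown because the members of each pair did not change alike, and that of NPC2 because it rose while most others did not. Each is the stretch of 250 bases before the start of the gene in RefSeq, build GRCh38.p14, written 5′ to 3′ on the strand of the gene. They lie at chr17:17836987-17837236 on the minus strand (SREBF1), chr22:41832855-41833104 on the plus strand (SREBF2), chr7:155297628-155297877 on the plus strand (INSIG1), chr2:118088221-118088470 on the plus strand (INSIG2) and chr14:74493513-74493762 on the minus strand (NPC2). Capitals mark the motifs the sterol response element (10 bases), CCAAT (NF-Y), GGGCGG (Sp1) and CACGTG (E-box), searched on both strands, so that reverse complements such as ATTGG and CCGCCC are marked too.
SREBF1 promoter: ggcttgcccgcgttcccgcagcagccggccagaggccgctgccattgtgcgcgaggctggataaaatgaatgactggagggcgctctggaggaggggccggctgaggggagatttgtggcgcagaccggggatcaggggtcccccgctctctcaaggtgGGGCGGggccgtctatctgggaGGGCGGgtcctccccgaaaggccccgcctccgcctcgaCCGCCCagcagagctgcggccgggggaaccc
SREBF2 promoter: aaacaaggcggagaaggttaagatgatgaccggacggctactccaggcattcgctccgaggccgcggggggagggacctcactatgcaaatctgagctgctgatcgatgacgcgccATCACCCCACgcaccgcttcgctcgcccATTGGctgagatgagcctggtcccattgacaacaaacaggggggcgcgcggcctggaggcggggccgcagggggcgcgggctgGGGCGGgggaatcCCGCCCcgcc
INSIG1 promoter: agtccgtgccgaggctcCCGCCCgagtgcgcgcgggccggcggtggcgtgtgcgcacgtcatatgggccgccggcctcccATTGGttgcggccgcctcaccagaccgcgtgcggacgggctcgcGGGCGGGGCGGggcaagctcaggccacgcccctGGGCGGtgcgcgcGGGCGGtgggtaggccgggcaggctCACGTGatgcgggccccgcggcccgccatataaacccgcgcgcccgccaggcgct
INSIG2 promoter: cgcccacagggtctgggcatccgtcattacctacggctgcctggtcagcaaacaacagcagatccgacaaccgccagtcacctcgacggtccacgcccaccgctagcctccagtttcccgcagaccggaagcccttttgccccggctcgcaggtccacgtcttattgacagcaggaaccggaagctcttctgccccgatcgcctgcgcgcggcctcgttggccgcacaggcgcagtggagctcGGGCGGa
NPC2 promoter: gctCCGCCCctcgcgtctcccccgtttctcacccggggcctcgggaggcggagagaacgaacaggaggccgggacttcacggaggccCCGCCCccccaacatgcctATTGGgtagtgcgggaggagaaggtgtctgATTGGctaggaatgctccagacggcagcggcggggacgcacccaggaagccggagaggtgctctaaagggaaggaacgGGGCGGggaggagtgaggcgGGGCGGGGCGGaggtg

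The sterol response element was searched in a fixed form. Of these 5 promoters, that of SREBF2 held this form, starting 134 bases before the start. It was the only one among 29 members with a promoter in the table. The form was in 0.125% of all 35116 promoters. Other forms and bases further upstream were not searched, so the other members are not shown to lack a sterol response element. CCAAT was in 18 of 29 members' promoters (62.1%) and in 32.0% of all promoters, and GGGCGG was in 27 of 29 (93.1%) and in 42.6% of all. The E-box was in 4 of 29 (13.8%), INSIG1, ABCA1, SCAP and SC5D, and in 6.34% of all promoters. An LXR element was searched in a fixed form, a direct repeat with 4 free bases. That form was in none of the 29 and in 0.0142% of all. Repeats with other bases were not searched, so members such as ABCA1 are not shown to lack an LXR element. The motifs overlap in places, as do neighbouring GGGCGG motifs in INSIG1 and NPC2. Among the promoters of genes lower in siChe-1 libraries, 5 of 8 held CCAAT and 8 of 8 held GGGCGG, against 13 of 21 and 19 of 21 among the other members. A match is a description of letters and no measure of binding.

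Relative to other genes, 11 of the 34 members tested fell in siChe-1 libraries and 2 rose, at a limma adjusted p of at most 0.05. Over all 10789 genes tested, 11.2% were lower and 16.8% higher. The 11 were SCARB1, ABCA1, SCD, INSIG1, DHCR7, FASN, LSS, EBP, ACACA, SREBF1 and FDFT1, and the 2 were NPC2 and STARD4. The siChe-1 and siControl libraries of each of these 13 genes did not overlap; over all genes tested, the groups did not overlap in 17.9% of genes with siChe-1 lower and in 26.4% with siChe-1 higher. The median log2 change of the 34 members was -0.11, beside a median of 0.06 over all genes tested. ABCG1, a partner of ABCA1 in cholesterol efflux, was not in the FPKM table and had 3 and 2 reads in siChe-1 replicates 1 and 2, against 4, 7 and 1 in siControl replicates 1 to 3. Without the last listed siChe-1 library or the last listed siControl library, 7 members were lower, beside 653 and 680 of 10789 genes. Without the second listed siControl library 4 were higher, beside 1681 genes, and without any other single library 1 was, beside 954 to 1420 genes. By role, limma called 0 of 7 genes up to farnesyl pyrophosphate, 4 of 11 between squalene and cholesterol, and 3 of 3 of fatty acid synthesis; whether these parts differ was not tested.

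**Figure D1:**
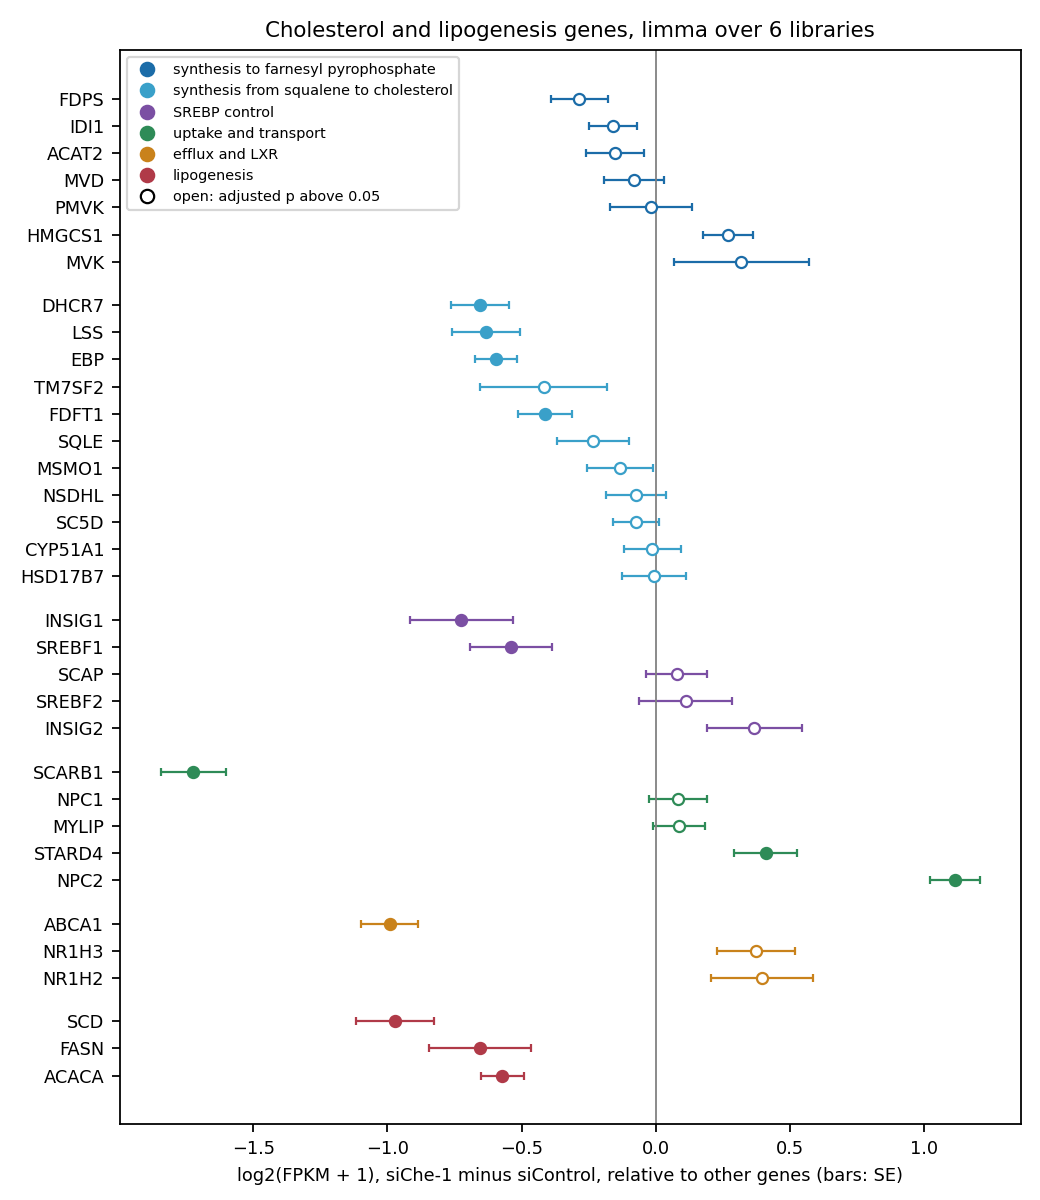
Change of each tested member relative to other genes (x axis: siChe-1 minus siControl in log2(FPKM + 1), bars: SE, 3 libraries per group), ordered by role down the page, with filled points for a limma adjusted p of at most 0.05. SCARB1 lies lowest at -1.72 and NPC2 highest at 1.12, and all 11 genes between squalene and cholesterol lie at or below 0.

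Of the 7 genes of the route up to farnesyl pyrophosphate, 0 were called by limma in either direction, and 2 (HMGCS1 and FDPS) had an unadjusted p under 0.05. FDPS was called lower with the deposited scaling (limma adjusted p = 0.0419), with rescaling over genes of at least 1 FPKM (0.0394) and without the first listed siControl library (0.0483), and HMGCS1 was called higher with upper quartile scaling (0.024). Their log2 changes lay between -0.28 and 0.32, with a median of -0.08. FDPS, which joins isoprene units into farnesyl pyrophosphate and is the most abundant of the 7, had 56.2, 67.4 and 59.3 FPKM in siChe-1 libraries, against 65.8, 78.6 and 79.2 FPKM in siControl libraries. The lowest siControl library lay within the siChe-1 range, and the log2 change was -0.28 (SE 0.11, limma adjusted p = 0.0872). HMGCS1, the synthase that makes HMG-CoA, had 49.4, 42.2 and 45 FPKM in siChe-1 libraries, against 40.7, 35.2 and 36.8 FPKM in siControl libraries. Its groups did not overlap, with siChe-1 higher, but the test was not passed (log2 change 0.27, SE 0.09, limma adjusted p = 0.0645).

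The remaining 5 genes of that route were not called: ACAT2 (acetoacetyl-CoA thiolase) at a log2 change of -0.15, IDI1 (isopentenyl diphosphate isomerase) at -0.16, MVD (mevalonate diphosphate decarboxylase) at -0.08, PMVK (phosphomevalonate kinase) at -0.02 and MVK (mevalonate kinase) at 0.32, with limma adjusted p from 0.227 to 0.943. In the 5 libraries of whole reads, scaled by TMM, ACAT2 was lower at -0.34 (SE 0.12, edgeR adjusted p = 0.0433). That call was not made in FPKM of 6 libraries, and in whole reads it was lost without siChe-1 replicate 1, siChe-1 replicate 2, siControl replicate 1 or siControl replicate 3, and with upper quartile scaling. ACAT2 overlaps a neighbour on the opposite strand, and the sources used here do not say whether counting used the strand.

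Between squalene and cholesterol, 4 of 11 genes fell and none rose, and all 11 log2 changes were below 0 (median -0.23). The smallest of them did not keep their sign. With upper quartile scaling CYP51A1 and HSD17B7 lay at 0.05 each, and the other genes of this stretch stayed below 0 in that setting. Without the second listed siControl library, HSD17B7 lay at 0.09 and NSDHL at 0.02. Without the first listed siControl library, CYP51A1 lay at 0.09. DHCR7, the reductase of the last step to cholesterol, had 22, 26.3 and 22.7 FPKM in siChe-1 libraries, against 33.4, 40.7 and 39.5 FPKM in siControl libraries. Every siChe-1 library lay below every siControl library (log2 change -0.66, SE 0.11, limma adjusted p = 0.00549). EBP, the sterol isomerase that acts earlier in the same route, had 63.7, 60.3 and 65.1 FPKM in siChe-1 libraries, against 98.6, 89.8 and 99.0 FPKM in siControl libraries. The libraries of each group lay close together and far from those of the other group (log2 change -0.60, SE 0.08, limma adjusted p = 0.00256).

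LSS, the cyclase that forms lanosterol, the first sterol, had 4.71, 5.80 and 5.33 FPKM in siChe-1 libraries, against 7.58, 10.4 and 8.37 FPKM in siControl libraries. Its groups did not overlap (log2 change -0.63, SE 0.13, limma adjusted p = 0.0108). FDFT1, which forms squalene and so commits farnesyl pyrophosphate to sterols, had 22.6, 20.4 and 18.4 FPKM in siChe-1 libraries, against 27.8, 25.5 and 29.5 FPKM in siControl libraries. Its change was the smallest of the 4 (log2 change -0.41, SE 0.10, limma adjusted p = 0.0206), and the call was lost without the first or last listed siControl library or the last listed siChe-1 library. CYP51A1, the lanosterol demethylase and the most abundant gene of this stretch, had 106, 95.1 and 103 FPKM in siChe-1 libraries, against 117, 98.0 and 93.0 FPKM in siControl libraries. Its groups overlapped fully, at a log2 change of -0.01 (SE 0.11, limma adjusted p = 0.943).

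The other 6 genes of this stretch were not called. SQLE, the squalene epoxidase known as a rate-limiting step of sterol synthesis, had 22.9, 28.1 and 20.8 FPKM in siChe-1 libraries, against 25.5, 32.6 and 26.7 FPKM in siControl libraries (log2 change -0.23, limma adjusted p = 0.237). TM7SF2, a sterol reductase, had a log2 change of -0.42 with an SE of 0.24. MSMO1 and NSDHL, which remove methyl groups from the sterol ring, had -0.13 and -0.07, SC5D, a desaturase, had -0.07, and HSD17B7, a ketoreductase, had -0.01. HSD17B7 has a pseudogene of nearly the same sequence, so that its reads may be shared. In whole reads of 5 libraries the same 4 genes were lower, DHCR7 by -0.69, EBP by -0.68, LSS by -0.75 and FDFT1 by -0.49 on the log2 scale (edgeR with TMM, adjusted p = 0.000807, 0.00173, 0.00182 and 0.0144). The FDFT1 call in reads was lost without siControl replicate 3 (edgeR with TMM, adjusted p = 0.0802). Without siChe-1 replicate 2, which leaves 1 siChe-1 library, its log2 change was -0.41.

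**Figure D2:**
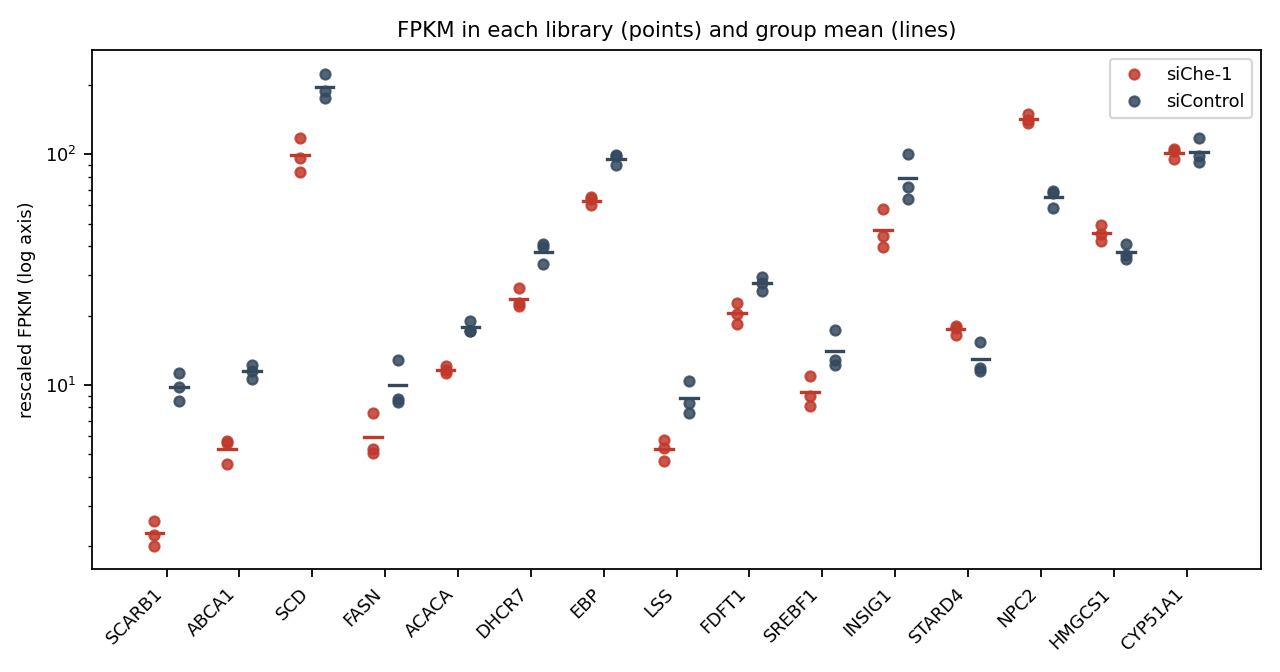
Rescaled FPKM (log axis) of 15 members in each library, with siChe-1 left of siControl for every gene; points are libraries and lines group means (n = 3 each). The 3 siChe-1 libraries of SCARB1 lie between 2.01 and 2.58 FPKM, below all siControl libraries, while those of NPC2 lie between 137 and 150.0 FPKM, above all of them.

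In the control by SREBP, 1 gene of each pair of paralogues fell. SREBF1 had 8.13, 11.0 and 8.93 FPKM in siChe-1 libraries, against 12.8, 17.3 and 12.2 FPKM in siControl libraries. The groups did not overlap (log2 change -0.54, SE 0.15, limma adjusted p = 0.0367). SREBF2 had 9.61, 13.3 and 10.7 FPKM in siChe-1 libraries, against 8.54, 13.2 and 9.37 FPKM in siControl libraries, which is an overlap (log2 change 0.11, SE 0.17, limma adjusted p = 0.662). The log2 ratio of SREBF1 to SREBF2 within a library was -0.24, -0.28 and -0.26 in siChe-1 libraries, against 0.58, 0.39 and 0.38 in siControl libraries. In FPKM, SREBF2 was thus the more abundant of the pair in every siChe-1 library and SREBF1 in every siControl library. The difference was -0.71, with an exact permutation p of 0.1, the smallest that 3 against 3 libraries can give.

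INSIG1, itself a well-known target of SREBP, had 44.1, 57.8 and 39.6 FPKM in siChe-1 libraries, against 64.2, 101 and 72.4 FPKM in siControl libraries (log2 change -0.72, SE 0.19, limma adjusted p = 0.0293). INSIG2, its paralogue, had 8.26, 11.3 and 7.86 FPKM in siChe-1 libraries, against 5.75, 8.73 and 6.18 FPKM in siControl libraries. The INSIG2 groups overlapped and its test was not passed (log2 change 0.37, SE 0.18, limma adjusted p = 0.164). The log2 ratio of INSIG1 to INSIG2 was 2.37 ± 0.04 in siChe-1 and 3.52 ± 0.04 in siControl libraries (SD, n = 3 each). The difference was -1.15, with an exact permutation p of 0.1, the smallest this design allows. SCAP, the escort of SREBP, had a log2 change of 0.08 and was not called.

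In whole reads without siChe-1 replicate 3, SREBF1 (-0.59, edgeR with TMM, adjusted p = 0.00435) and INSIG1 (-0.71, adjusted p = 0.0079) were lower as well, but SREBF1 was not without siChe-1 replicate 2, nor INSIG1 without siChe-1 replicate 1. The 2 ratios differed by -0.68 and -1.12 between the groups, each with an exact permutation p of 0.2, the smallest for 3 against 2 libraries. In these reads, the log2 ratio of SREBF1 to SREBF2 was 0.08 and -0.15 in siChe-1 replicates 1 and 2. It was 0.83, 0.53 and 0.58 in siControl replicates 1 to 3. SREBF1 thus had more reads than SREBF2 in siChe-1 replicate 1, unlike in FPKM. Whole reads are not divided by transcript length. Each ratio is taken within a library and so does not depend on how libraries are scaled. SREBF1 and INSIG1 varied within groups together with many other members: the second listed library was the highest of its group for 24 of 34 members in siChe-1 and for 22 of 34 in siControl, for 20 of them in both. The share over all genes was not counted, so this pattern is not known to be particular to the members. The part of this pattern in the results was not tested, and the SREBF1 call in FPKM was lost in 6 of 12 other settings (without any 1 siControl library, without the first or last listed siChe-1 library, and with upper quartile scaling). That of INSIG1 was lost in 3 of 12, without the first or last listed siChe-1 library or the last listed siControl library.

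**Figure D3:**
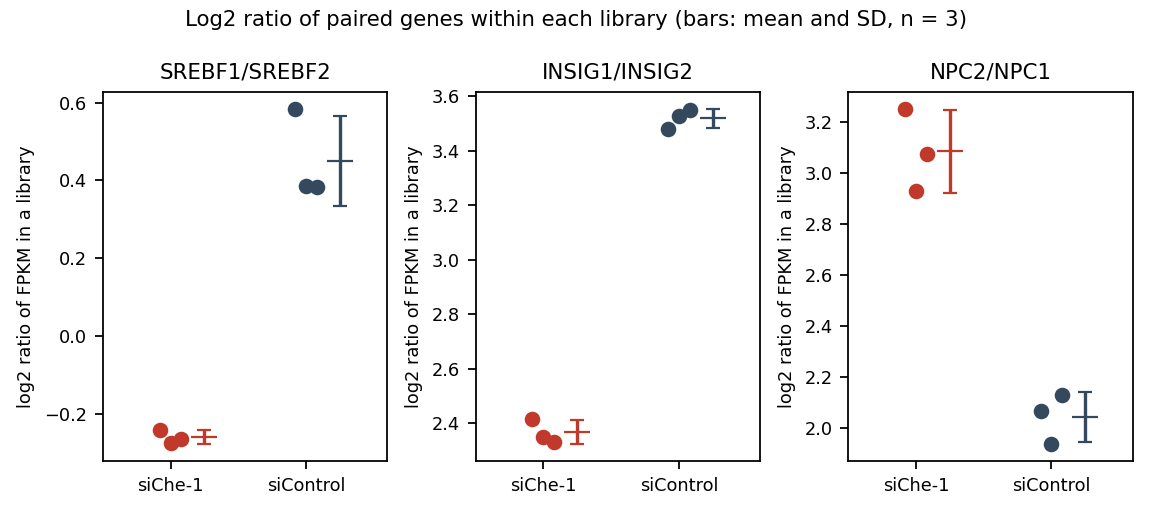
Log2 ratio of 2 genes within each library, siChe-1 left and siControl right (points: libraries; bars: mean and SD, n = 3 each). The siChe-1 libraries lie below the siControl libraries for SREBF1/SREBF2 and INSIG1/INSIG2 and above them for NPC2/NPC1, without overlap.

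Uptake and transport held the largest changes in FPKM among the 34 tested members in both directions. SCARB1, the receptor that takes up cholesterol from HDL, lies on the minus strand of chromosome 12, in a locus from 125262174 to 125348519 in the authors' hg19 coordinates. It had 2.23, 2.58 and 2.01 FPKM in siChe-1 libraries, against 8.53, 11.2 and 9.79 FPKM in siControl libraries. Its mean FPKM was 0.231 of that in siControl libraries. On the scale of log2(FPKM + 1), which understates changes of low genes, the change was -1.72 (SE 0.12, limma adjusted p = 0.000511). NPC2, the protein of the lysosome lumen that hands cholesterol on to NPC1, lies on the minus strand of chromosome 14, in a locus from 74946643 to 74960084 on hg19. It had 150.0, 141 and 137 FPKM in siChe-1 libraries, against 58.6, 67.9 and 69.6 FPKM in siControl libraries. Every siChe-1 library was far above the siControl libraries, by 2.18 times in the mean (log2 change 1.12, SE 0.09, limma adjusted p = 0.000784).

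NPC1, the membrane protein that takes cholesterol out of the lysosome, had 15.7, 18.5 and 16.3 FPKM in siChe-1 libraries, against 14, 17.7 and 15.9 FPKM in siControl libraries. Its groups overlapped (log2 change 0.08, SE 0.11, limma adjusted p = 0.606). The log2 ratio of NPC2 to NPC1, chosen after the values were seen, was 3.09 ± 0.16 in siChe-1 and 2.04 ± 0.10 in siControl libraries (SD, n = 3 each; exact permutation p of 0.1, the smallest possible). STARD4, a carrier of cholesterol in the cytosol, had 16.4, 18.1 and 17.7 FPKM in siChe-1 libraries, against 11.9, 15.4 and 11.5 FPKM in siControl libraries. It passed in FPKM (log2 change 0.41, SE 0.12, limma adjusted p = 0.0369) but not in whole reads of 5 libraries (0.33, SE 0.13, edgeR with TMM, adjusted p = 0.0769). The FPKM call was lost without any 1 library except the second listed siControl library, and with the deposited scaling. MYLIP, a ubiquitin ligase that marks lipoprotein receptors for breakdown, had a log2 change of 0.09 and was not called.

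Of the efflux genes, ABCA1, the pump that passes cholesterol to apolipoprotein A-I, had 4.53, 5.73 and 5.59 FPKM in siChe-1 libraries, against 10.7, 11.5 and 12.2 FPKM in siControl libraries. The siChe-1 libraries lay below the siControl libraries without overlap (log2 change -0.99, SE 0.11, limma adjusted p = 0.00136). The LXR receptors were not called. NR1H2 (LXR beta) had 12, 18.1 and 14.6 FPKM in siChe-1 libraries, against 9.43, 14.4 and 9.60 FPKM in siControl libraries (log2 change 0.40, SE 0.19, limma adjusted p = 0.163). NR1H3 (LXR alpha) had 1.11, 1.83 and 1.14 FPKM in siChe-1 libraries, against 0.713, 0.751 and 0.955 FPKM in siControl libraries (log2 change 0.37, SE 0.14, limma adjusted p = 0.0933). The NR1H2 groups overlapped and those of NR1H3 did not, with siChe-1 higher. Neither passed the test, and the FPKM table lists only 2 transcripts of NR1H3, each with a mean under 1 FPKM in both groups.

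All 3 genes of fatty acid synthesis fell. SCD, the desaturase that makes oleate, had 84.1, 118 and 96.8 FPKM in siChe-1 libraries, against 175, 224 and 188 FPKM in siControl libraries. It was the most abundant member in siControl libraries. In siChe-1 libraries NPC2 and CYP51A1 had a higher mean (143 and 101.5 FPKM, against 99.5 FPKM for SCD). In the second listed siChe-1 library, however, SCD lay above CYP51A1. The siChe-1 mean of SCD was 0.509 of that in siControl libraries (log2 change -0.97, SE 0.14, limma adjusted p = 0.00377). FASN, the fatty acid synthase, had 5.10, 7.56 and 5.26 FPKM in siChe-1 libraries, against 8.43, 12.9 and 8.74 FPKM in siControl libraries (log2 change -0.65, SE 0.19, limma adjusted p = 0.0382). ACACA, acetyl-CoA carboxylase, which makes the malonyl-CoA that FASN uses, had 11.2, 12.1 and 11.6 FPKM in siChe-1 libraries, against 17.2, 19.0 and 17.2 FPKM in siControl libraries. Its libraries differed little within groups, and the log2 change of -0.57 (SE 0.08, limma adjusted p = 0.00317) kept its call in each of 12 other settings, while the call of FASN was lost in 5 of 11 (without the first or last listed siChe-1 library, without the second or last listed siControl library, and with upper quartile scaling).

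ACACA is the neighbour of the silenced gene. In the authors' coordinates on hg19, the AATF locus runs from 35306175 to 35414171 on the plus strand of chromosome 17 and the ACACA locus from 35441927 to 35766902 on the minus strand, 27755 bases away, so that the 3′ ends face each other. Whether the fall of ACACA depends on that position was not tested.

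Whole reads of 5 libraries gave much the same calls as FPKM of 6. With TMM scaling, edgeR called 11 of 33 members lower (14.8% of 12492 genes) and 1 higher (14% of genes), NPC2 at a log2 change of 1.07 (SE 0.13, adjusted p = 7.75e-05). Both tests called 11 genes, all 11 in the same direction. SCD could not be tested in reads, since its siControl reads could not be recovered. Without siControl replicate 2, 5 members were higher, beside 1982 of 12492 genes. SCARB1 was again the lowest (-2.10, SE 0.15, adjusted p = 3.15e-06), followed by ABCA1 (-1.20, SE 0.12, adjusted p = 2.52e-05). These reads come from the same libraries and are no independent repeat.

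Measured against the spike-ins, nearly the whole set was lower in siChe-1 replicates 1 and 2 than in siControl libraries, as were most genes. Spike-ins are RNAs of known sequence added to each sample, and each spike-in read stood beside 23.6 and 20 gene reads in siChe-1 replicates 1 and 2, against 39.9, 58.2 and 59.5 in siControl replicates 1 to 3 (0.415 of the siControl mean, exact permutation p of 0.2, the smallest possible). The spike-in reads of siChe-1 replicate 3 lay within the siControl range, and over all 6 libraries spike-in reads were 1.81 times as many in siChe-1 as in siControl libraries (exact permutation p of 0.2). On this scale, edgeR called 32 of 33 members lower, beside 84.3% of 12492 genes, and 0 higher, beside 0.192%. DESeq2 gave the same counts of members, beside 10637 lower and 20 higher genes. Without siControl replicate 3, 5 members lost their edgeR call and 8189 genes were lower. Without siChe-1 replicate 2, the median log2 change over all genes was -1.12, against -1.24 with it. In the authors' deposited table, 26 of 34 members with a mean of at least 10 were lower at an adjusted p of at most 0.05, beside 63.5% of 12590 genes, and 0 were higher, beside 0.0635%. The authors' deposited table gives a median log2 fold change of -1.25 over these genes, with quartiles of -1.51 and -0.97, and a median of -1.45 over the 34 members. With the replicate number as a block in the fit, edgeR called 1 member lower, beside 71 of 12492 genes. The numbers are not known to pair the libraries.

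NPC2 was the 1 member of 33 with no call against the spike-ins. It had 1475 and 1039.7 spike-in-normalized reads in siChe-1 replicates 1 and 2, against 926, 1595 and 1761 in siControl replicates 1 to 3, which overlap (log2 change -0.18, SE 0.33, edgeR adjusted p = 0.599). In the authors' deposited table its log2 fold change was higher than that of 97.4% of genes. SCARB1 had 114 and 80.7 normalized reads in siChe-1 replicates 1 and 2, against 672, 1196 and 1102 in siControl replicates 1 to 3. The authors' deposited table puts it at -3.35 on the log2 scale (adjusted p = 9.01e-06), at percentile 0.191 of all genes.

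ABCA1 had 750.1 and 779.7 normalized reads in siChe-1 replicates 1 and 2, against 3019, 4752 and 4936 in siControl replicates 1 to 3, and a log2 fold change of -2.47 in the authors' deposited table. SCD had 7038 and 7277 normalized reads in siChe-1 replicates 1 and 2, against the authors' mean of 35433 in siControl, and a log2 fold change of -2.31 in the authors' deposited table. Both lie more than 1 below the median of all genes on the log2 scale. By role, the medians in the authors' deposited table were -1.94 for fatty acid synthesis, -1.50 between squalene and cholesterol, -1.33 up to farnesyl pyrophosphate, -1.22 for uptake and transport, -1.21 for SREBP control and -0.95 for efflux and LXR. The 8 members with no call there were MVK, TM7SF2, SREBF2, INSIG2, STARD4, NPC2, NR1H2 and NR1H3.

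**Figure D4:**
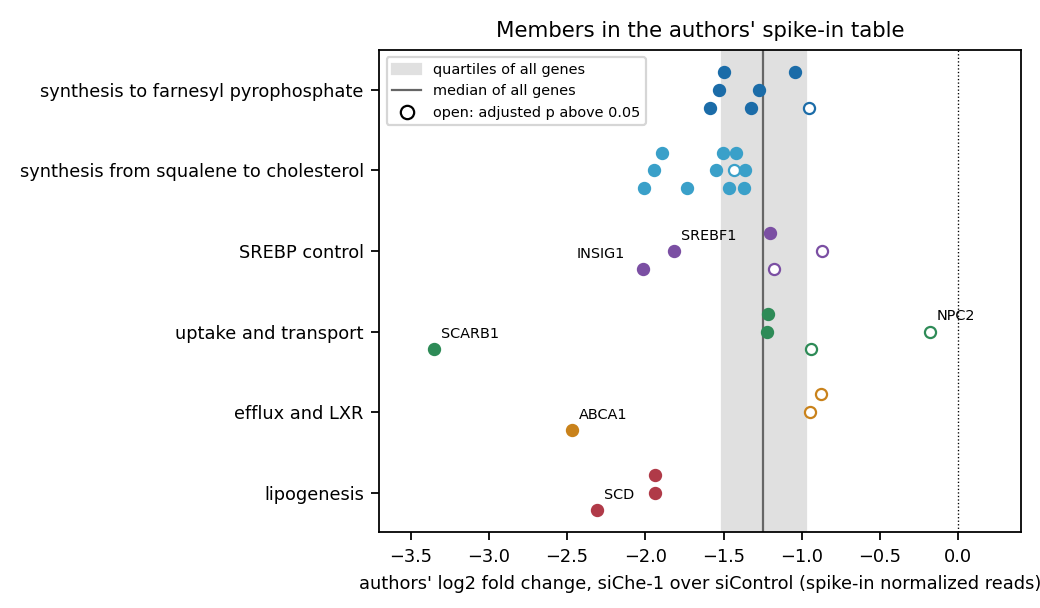
Log2 fold change of 34 members in the authors' deposited table (x axis, spike-in-normalized reads, siChe-1 over siControl), one row per role, beside the median (line) and quartiles (grey band) of 12590 genes; filled points have an adjusted p of at most 0.05. SCARB1, ABCA1 and SCD lie left of the band at -3.35, -2.47 and -2.31, and NPC2 lies right of it at -0.18.

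Transcripts of the same gene were then compared with each other. The FPKM table lists 54 transcripts of 34 members, 21 of them with 1 transcript and 13 with several; 46 transcripts were tested by limma, 8 were lower (4.59% of 15108 transcripts) and 2 higher (5.71%). Both tested transcripts of SCARB1 were lower: NM_005505 had 1.27, 2.08 and 2.01 FPKM in siChe-1 libraries, against 5.06, 8.62 and 4.85 FPKM in siControl libraries (log2 change -1.34, SE 0.24, limma adjusted p = 0.026). The SCARB1 transcript NM_001082959 averaged 0.487 ± 0.479 FPKM in siChe-1 and 3.67 ± 1.18 FPKM in siControl libraries (SD, n = 3 each; log2 change -1.68, limma adjusted p = 0.0283). With a pseudocount of 0.1 its log2 change was -3.19 and the call was lost (limma adjusted p = 0.0777). Of the tested transcripts of ACACA, NM_198836 was lower (6.73 ± 1.25 FPKM in siChe-1 and 13.3 ± 0.281 FPKM in siControl libraries, SD, n = 3 each, log2 change -0.90, limma adjusted p = 0.0183), while NM_198834 and NM_198838 had log2 changes of 0.49 and -0.41 and were not called.

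MVK showed the opposite case, a change of 1 transcript within a gene that was not called. NM_001114185 had 3.01, 2.11 and 3.87 FPKM in siChe-1 libraries, against 0.829, 0.000194 and 0.631 FPKM in siControl libraries (log2 change 1.45, SE 0.30, limma adjusted p = 0.0354). NM_000431, the other one, averaged 2.58 ± 2.58 FPKM in siChe-1 and 3.78 ± 1.93 FPKM in siControl libraries (SD, n = 3 each), and the sum of both was not called (log2 change 0.32). With a pseudocount of 0.1 the log2 change was 2.88 and the call was lost (limma adjusted p = 0.101), and the authors' deposited table does not mark this transcript (q = 0.174). Their deposited transcript table marks 13 of the 54 as significant, 12 of them lower (10.2% of 18750 transcripts) and 1 higher (8.05%), NPC2. Splitting reads between transcripts of a gene is an estimate. No transcript of these genes was lower by limma without the last listed siChe-1 library or without the last listed siControl library. Over all 15108 transcripts tested, 24 and 98 were lower in these 2 settings.

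**Figure D5:**
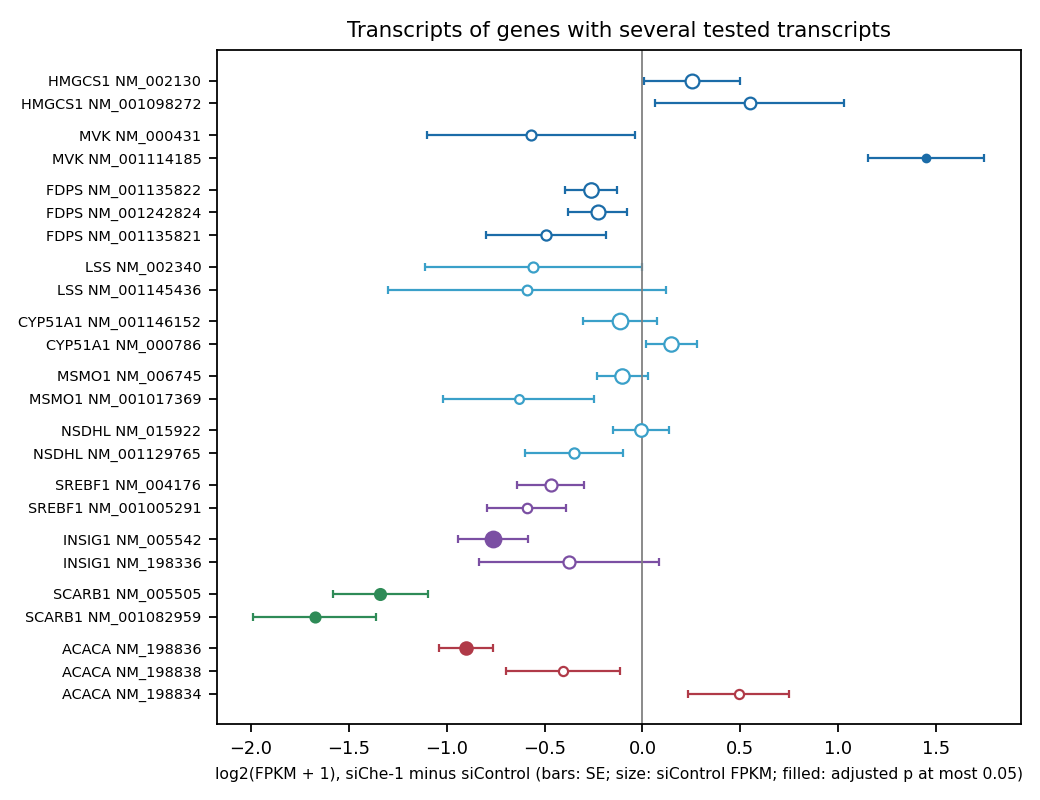
Change of each tested transcript of the members with more than 1 tested transcript (x axis: siChe-1 minus siControl in log2(FPKM + 1), bars: SE, 3 libraries per group; larger points have a higher siControl FPKM, filled points a limma adjusted p of at most 0.05). Both SCARB1 transcripts lie below -1, and MVK NM_001114185 is the only one above 1.

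Neighbouring pathways were followed through 4 further lists with 85 genes, of which 68 were tested by limma, 12 were lower and 9 higher, beside 11.2% lower and 16.8% higher over all genes tested. In the list of sterol sensing and SREBP processing, 4 of 14 were lower and 2 higher. TMEM97, a sterol-regulated protein of the endoplasmic reticulum known to bind NPC1, was the most abundant of that list in siControl libraries (SEC23A was in siChe-1 libraries), with 57.7, 48.3 and 56.2 FPKM in siChe-1 libraries, against 104, 81.7 and 111 FPKM in siControl libraries (log2 change -0.85, SE 0.13, limma adjusted p = 0.00427). SEC23A, a coat protein of the vesicles that leave the endoplasmic reticulum, rose by 0.60 (SE 0.08, limma adjusted p = 0.00233). In the isoprenoid branch, which draws on farnesyl pyrophosphate, 4 of 12 were lower and 0 higher. PDSS2 and PDSS1, which together make the tail of coenzyme Q, fell by 1.04 and 0.63, and RABGGTB, a geranylgeranyl transferase subunit and the most abundant of the list, fell by 0.47 (limma adjusted p = 0.00326, 0.0201 and 0.0386).

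Fatty acid and glycerolipid genes outside the 35 held 3 of 22 genes called lower and 5 called higher, near the shares over all genes. LPIN2, a phosphatidate phosphatase, rose by 0.50 (SE 0.09, limma adjusted p = 0.00646), and HSD17B12, an enzyme of fatty acid elongation and the most abundant of the list, had a log2 change of -0.08 without a call. In the list of sterol storage, trafficking and oxysterol genes, 1 of 20 was lower and 2 were higher. LRP8, a lipoprotein receptor, fell by 0.45 and OSBPL2, an oxysterol-binding protein, rose by 0.38 (limma adjusted p = 0.00932 and 0.00973). LBR, a sterol reductase of the nuclear membrane and the most abundant of the list, averaged 173 ± 20.9 FPKM in siChe-1 and 219 ± 22.3 FPKM in siControl libraries (SD, n = 3 each) and was not called (log2 change -0.34, limma adjusted p = 0.0665). The medians of the 4 lists were -0.05 (fatty acid), -0.10 (sterol sensing), -0.14 (isoprenoid) and 0.08 (sterol storage) on the log2 scale, beside 0.06 over all genes tested.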

How the data were processed

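RNA of KMS-27 cells was sequenced after depletion of ribosomal RNA with a stranded kit from 500 ng of total RNA, per the labels' protocols, in 3 siChe-1 and 3 siControl libraries, grouped by sample title. The submitters' processing notes name hg19 and the tools DESeq2, HTSeq, Cuffdiff, Cufflinks and TopHat, with no roles; versions, and whether counting was stranded, are not given in the sources used here. Counts of 92 spike-ins in 6 libraries, as raw reads, were deposited by the authors, per the file headers. Their comparison table holds a signal per group, which is the read count divided by a spike-in size factor and averaged, with the ratio (fold change), its log2, the p-value and the adjusted p, per the file headers. Their transcript table holds FPKM per group and per listed library, the log2 of the ratio, and p-values and q-values, per the file headers.

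The 3 listed values of each transcript average to the group FPKM but carry no replicate number. FPKM of transcripts was summed over 12075 genes, rescaled by the median of ratios over genes with a mean of at least 10 (factors 0.956 to 1.06), and log2(FPKM + 1) was tested by limma with a mean-variance trend for genes with a mean of at least 1; this scale understates changes of low genes. Of 2139 low siChe-1 means in the authors' table, 100% were sums of whole reads with siChe-1 replicates 1 and 2 and 0% with another set of siChe-1 libraries, to a relative tolerance of 8e-15. Whole reads recovered in this way for 16345 of 16444 genes (99.4%) were tested by edgeR's quasi-likelihood test with the spike-in size factors or with TMM, for genes with a mean of at least 10. Tests were two-sided, with Benjamini-Hochberg adjustment over all features tested and a threshold of 0.05, and the scripts were tested on simulated data. Of simulated log2 changes of 0.5, limma on FPKM called 38%, edgeR with TMM 36% and edgeR with spike-in factors 0%. Of changes of 1, they called 86.5%, 92% and 37%. A gene without a call may thus still have changed by such amounts.

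The genes, the lists and the tests were chosen with earlier results of these data known. Named genes are all members, with library values for those called, the most abundant of each role and the paralogue pairs, and of each further list the 2 of lowest p and the most abundant one; 1 gene that this rule takes is not reported here. Alternatives were other pseudocounts, minimums and scalings, DESeq2, the replicate number as a block and leaving out each library. Promoters were matched by symbol for 29 of 35 genes in the RefSeq table of GRCh38.p14, taking the first listed start, and motifs were searched in the 250 bases before it. R 4.3.3, limma 3.58.1, edgeR 4.0.16, DESeq2 1.42.0 and Python 3.11.15 were used.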

Additional observations from a re-analysis of the deposited data

How the results depend on the processing

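No called result was reversed under any alternative that was run. In FPKM, the count of lower members (11) was 7 of 23 tested at a minimum FPKM of 10, and the count of higher members (2) was 1 with the deposited scaling. Leaving out each library gave 7 to 11 lower and 1 to 4 higher members, beside 653 to 1035 lower and 954 to 1681 higher of 10789 genes. FDPS gained a call in 3 settings and HMGCS1, INSIG2 and NR1H2 in 1 each. DHCR7, EBP, ACACA, SCD and NPC2 kept their call in each of 12 settings and SCARB1, ABCA1 and LSS in each of the 11 that tested them; SREBF1 and STARD4 lost it in 6 of 12, FASN in 5 of 11, and INSIG1 and FDFT1 in 3 of 12. Over all genes, 1204 were lower and 1816 higher, against 1591 and 1213 with the deposited scaling, 917 and 2231 with the upper quartile, 1490 and 1445 with rescaling over genes of at least 1, and 948 and 951 at a minimum of 10. Transcripts of members were higher in 1 case with a pseudocount of 0.1, beside 866 of 15108 transcripts, and at a minimum of 10, beside 629 of 6616. Leaving out each library gave 0 to 5 lower and 1 higher, beside 24 to 282 lower and 26 to 323 higher of 15108 transcripts. In recovered reads relative to other genes, 2 members were higher with the upper quartile in place of TMM, beside 2244 of 12492 genes. With TMM, leaving out each siControl library gave 9 to 11 lower and 1 to 5 higher members, beside 1161 to 2157 lower and 1080 to 1982 higher genes.

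On the spike-in scale, leaving out each library gave 16 to 32 lower members, with 16 without siChe-1 replicate 2. The replicate numbers gave correlations of deviations from the group means of 0.199 and 0.218, but only 2 pairs exist and the labels do not say what a number shares. With the replicate block, the spike-in count of lower members was 1 and 71 of 12492 genes were lower. With TMM the replicate block gave 11 lower and 1 higher members, beside 1978 lower and 1895 higher of 12492 genes. There ACAT2 was no longer called (edgeR adjusted p = 0.0952) and MSMO1 was called lower instead (edgeR adjusted p = 0.0441). Why these counts differ was not tested. Depth limits ABCG1, with at most 7 reads in a library, and siChe-1 replicate 3 has no read count here.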
